A study of Mus musculus with 12 samples.

Results

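The genes described here are the potassium channels of the mouse amygdala other than the inward rectifiers, together with their auxiliary subunits. They were chosen by name: protein-coding genes of GENCODE M21 whose symbols start with Kcn but not with Kcnj, and that had at least 10 reads in total over 11 mice. No measure of anxiety and no group entered that rule. Of 79 genes with such symbols 78 passed the read minimum, which is 78 of the 26963 genes tested and of the 47729 genes in the deposited table. Kcnk16 was left out with 1 read in total. All 12 animals were age-matched female C57/BL6 mice, an inbred strain, for which no treatment is given, and bilateral amygdala tissue of each mouse gave 1 mRNA library. The 11 mice compared were 3 less anxious (mice 3, 7 and 12), 4 anxious (mice 1, 4, 8 and 11) and 4 more anxious (mice 2, 6, 9 and 10), a state that the labels call predicted, and mouse 5 carried no state. In a principal component analysis of expression, mouse 5 was a clear outlier for the study, which removed it. The study set these groups from tertiles of the scores of the mice on the second principal component of this expression data, so a difference between the groups is not independent of expression. Such an analysis was repeated here on the 11 mice. Mouse 6 scored -0.280 on its second component, below the anxious mice 1 (4.40) and 11 (2.88). The other more anxious mice scored 12.8 to 25.2. The elevated plus maze, the light/dark box and a social interaction test gave measures that were not computed from expression.

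Potassium channels let potassium leave the cell and so hold the resting potential, end the action potential and set how soon a neuron can fire again. Voltage-gated channels (the Kv families Kcna, Kcnb, Kcnc, Kcnd, Kcnq and Kcnh) open on depolarization, calcium-activated channels (Kcnma1 and Kcnn) and sodium-activated channels (Kcnt) couple outward current to preceding activity, and the tandem-pore channels (Kcnk) carry leak current. Auxiliary subunits (Kcnab, Kcnip, Kcne and Kcnmb) form no pore and change the trafficking and gating of the pore-forming subunits, while the so-called silent subunits (Kcnf, Kcng, Kcns and Kcnv) have a pore but reach the membrane only together with Kv2 subunits. In amygdala neurons these currents are known for setting spike adaptation and the afterhyperpolarization.

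The selectivity filter is what pore-forming members share and auxiliary members lack, and the rule used only names. The longest complete coding sequence of each member in GENCODE M21 (GRCm38) was translated and searched for threonine or serine, then valine, isoleucine, leucine or tyrosine, then glycine, then tyrosine, phenylalanine or leucine, then glycine. It was found in 61 of 78 members (78.2%) and in 210 of the other tested genes with a coding sequence (1.22%). The 17 members without it were the 4 Kcnmb genes and the 13 genes grouped as auxiliary Kv subunits (Kcnab, Kcnip, Kcne and Kcnrg). Of the 13 Kcnk genes, 11 held the pattern 2 times, while Kcnk1 and Kcnk7 held it 1 time. The search counts this pattern and not pore domains, since it does not find a filter with other residues. The sequences below are the coding strand around the filter of members that the results turn on, 15 bases on each side in lower case and the 15 bases of the pattern in capitals. Kcnk2 and Kcnk12 are given with both of their filters, which shows the tandem pore.
Kcna2, chr3:107105209-107105253: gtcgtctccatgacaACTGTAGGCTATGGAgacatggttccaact
Kcnd3, chr3:105459899-105658632, across an intron: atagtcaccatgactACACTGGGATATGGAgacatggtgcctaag
Kcnf1, chr12:17175046-17175090: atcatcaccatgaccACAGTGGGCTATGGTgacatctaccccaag
Kcnn3, chr3:89645497-89645541: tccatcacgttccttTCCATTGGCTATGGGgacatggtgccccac
Kcnt1, chr2:25894352-25894396: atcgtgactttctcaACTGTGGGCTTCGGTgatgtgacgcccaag
Kcnk2 filter 1, chr1:189258876-189295615, across an intron: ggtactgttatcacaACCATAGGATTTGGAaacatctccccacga
Kcnk2 filter 2, chr1:189243025-189256610, across an intron: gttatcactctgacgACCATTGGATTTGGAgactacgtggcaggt
Kcnk12 filter 1, chr17:87746819-87797085, across an intron: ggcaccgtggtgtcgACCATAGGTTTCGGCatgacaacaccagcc
Kcnk12 filter 2, chr17:87746438-87746482: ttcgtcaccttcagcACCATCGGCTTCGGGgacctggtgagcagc

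The libraries held 31745630 to 45142355 reads per mouse (median 36578626) in the 11 mice, and 0.304% to 0.352% of the reads of a mouse fell on the 78 channel genes. The genes listed as markers of the amygdala nuclei were detected, with summed levels of 147 to 209 reads per 1000000 library reads (CPM) in less, 133 to 209.7 in anxious and 99.2 to 181 in more anxious mice. The highest of them were Etv1 and Dlk1, with means of 69.3 and 37.7 CPM over the 11 mice. Rspo2, Prkcd, Foxp2 and Nts had means of 12.0 to 19.3 CPM. The summed markers of pituitary (Prl, Gh, Pomc and Cga) were at 56.7 CPM in mouse 4 and 16.5 in mouse 11, both anxious, and at 1.11 to 4.94 in the other 9. Each library came from another mouse, so the tests measure the spread between mice. In this bulk tissue, fewer cells of a type and less RNA per cell cannot be told apart.

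Levels of different genes were compared per length, as reads per kilobase of the longest transcript scaled to a sum of 1000000 over all genes in each mouse (a TPM-type level, mean ± SD over n = 11 mice). The 13 genes grouped as auxiliary Kv subunits, Kcnrg among them, together stood at 430.2 ± 51.8, which was 30.8% of the summed level of the 78 genes. Kcnab2, a subunit of Kv1 channels with the fold of an oxidoreductase, was the highest gene at 126 ± 29.8. High levels were also found for the calcium-binding Kv4 partners Kcnip2 at 95.8 ± 22.8 and Kcnip3 at 84.9 ± 9.28. Their ranges over mice overlap, Kcnab2 with 85.1 to 183 and Kcnip3 with 65.5 to 96.5.

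Among the pore-forming families, the silent subunits were next at 160.3 ± 20.0, led by Kcnf1 at 67.4 ± 9.10. The Kv7 genes summed to 143 ± 16.3 and the Kv3 genes, known from fast-spiking neurons, to 119.8 ± 12.9, with Kcnc4 (45.9 ± 7.95), Kcnc1 (30.3 ± 2.43) and Kcnc2 (26.7 ± 2.34). Kcnh3 at 67.7 ± 10.3 made up 59.0% of the Kcnh level of 115 ± 13.8. The tandem-pore genes reached 98.0 ± 10.4, of which Kcnk1 (50.8 ± 3.54) and Kcnk2 (23.3 ± 5.41) were the main part. For the A-type current of dendrites, Kcnd3 stood at 45.3 ± 12.9 and Kcnd2 at 31.9 ± 5.80. The Kv1 family, which sits on axons, summed to 76.8 ± 9.48, with Kcna6 at 31.6 ± 3.23, Kcna2 at 19.9 ± 2.83 and Kcna1 at 6.05 ± 1.84. Kcnt1 was at 50.4 ± 4.48. Of the calcium-activated channels, the beta subunit Kcnmb4 was at 43.0 ± 7.33 and the pore-forming Kcnma1 at 6.20 ± 1.45, with the small-conductance genes Kcnn2 at 17.6 ± 2.82 and Kcnn3 at 9.14 ± 1.46. The order depends on which transcript length is used. With the length of all exons of a gene joined, Kcnmb4 was at 24.6 and Kcnn2 at 10.1.

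**Figure D1:**
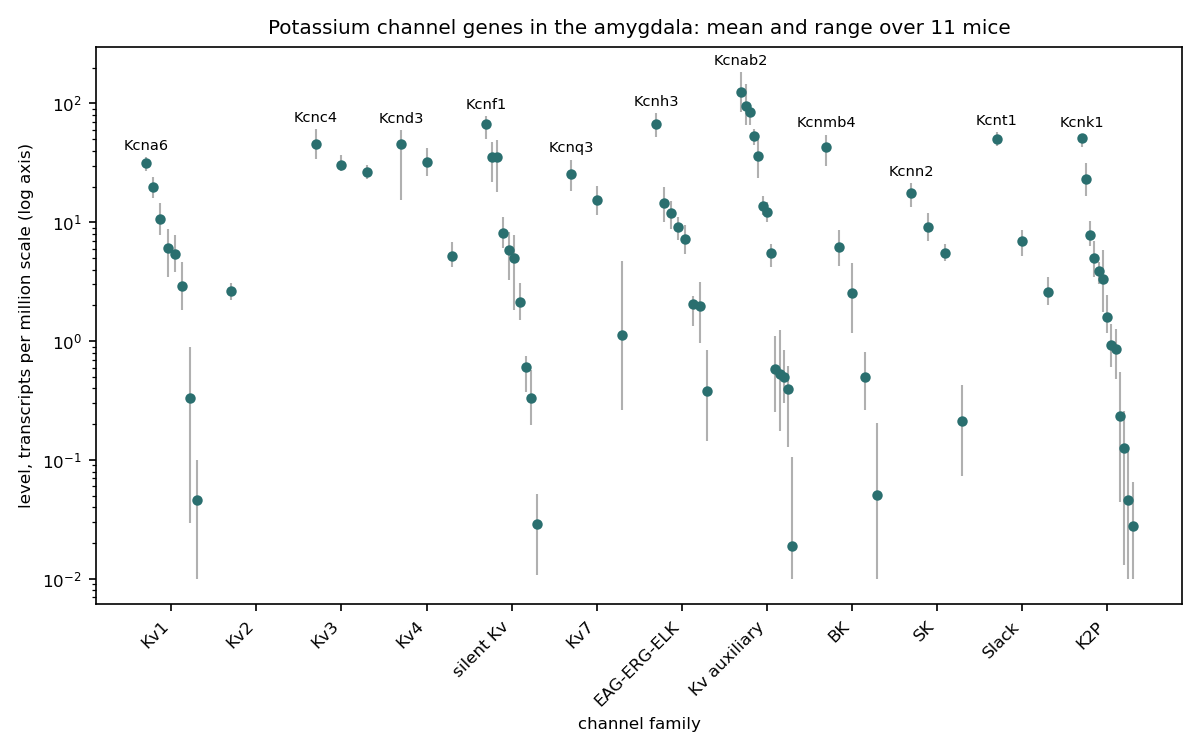
Level of 74 of the 78 genes on the TPM-type scale (log axis), grouped by channel family, with the mean over 11 mice as a point and the lowest to highest mouse as a line, drawn no lower than 0.01. Names mark the highest point of a family where the text describes that gene, from Kcnn2 at 17.6 to Kcnab2 at 126.

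Among the 61 with a mean of at least 1 CPM, the coefficient of variation over mice had a median of 16.6%, against 14.3% over all genes at that level. Kcnk1 varied least (6.10%) and Kcnq1, a Kv7 gene best known from the heart and epithelia, most (114%), both named after their values were seen. Kcnq1 was at 6.83 CPM in mouse 4 and between 0.402 and 2.23 CPM in the other 10, and mouse 4 was also the mouse with the highest pituitary markers, whose part in this was not tested. Kcnd3 (chr3:105452330-105674002, plus strand) was at 54.3 CPM in mouse 3 and at 117 to 190.2 CPM elsewhere. Whether the counting used the strand is not given in the sources used here, so reads of genes on opposite strands cannot be told apart where their exons overlap. Such an overlap was found for 21 of the 78 genes, among them Kcnd3 with Kcnd3os, Kcng2 with D330025C20Rik, Kcnh3 with Mcrs1, Kcnk2 with A430027H14Rik, Kcnn2 with A330093E20Rik, Kcnmb4 with Kcnmb4os1 and Kcnmb4os2, and Kcnq1 with Kcnq1ot1. On the same strand Kcnab2 overlaps Gm16334 and Kcnk4 overlaps Catsperz, so their counts are uncertain by what those genes take.

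The comparison of the 3 groups asks which genes differ with the predicted anxiety state. It was fitted over all 26963 genes with edgeR's quasi-likelihood test, both group terms together. The score on the first principal component was a covariate, as in the model of the study. After Benjamini-Hochberg adjustment 0 of the 78 genes passed 0.05, where 2 of all genes did (0.00742%), and the smallest adjusted p of a channel gene was 0.504. DESeq2's likelihood ratio test called 0 of them as well, where it called 187 of all 34511 genes it was given. The smallest adjusted p of a channel gene there was 0.0692. Before adjustment 11 of 78 (14.1%) were under 0.05, against 6.35% of all genes tested, and DESeq2 also had 11 there. Of the 11, 6 were higher in more than in less anxious mice (Kcnip3, Kcnt1, Kcnk12, Kcng2, Kcnab3 and Kcnmb4), with 3.95% of all genes under 0.05 in that direction. The other 5 were lower (Kcnip2, Kcna2, Kcnk5, Kcnk2 and Kcnn3), against 2.41% of all genes. At a mean of 1 CPM or more, 10 of 61 channel genes were under 0.05 before adjustment, against 7.73% of all 15891 genes at that level. The fitted log2 difference of more against less anxious mice was above 0 for 36 of the 78 genes and under 0 for 42, with a median log2 difference of -0.030 where all genes had 0.0036, and the sign of that median changed with the mouse left out. Summed over the 78, the TPM-type level was 1455 ± 168 in less, 1394 ± 121 in anxious and 1361 ± 107 in more anxious mice, and these means differed by less than the SD of the less anxious group. Without mouse 9, the third more anxious mouse, 6 of 78 were under 0.05, with 4.5% of all genes there.

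**Figure D2:**
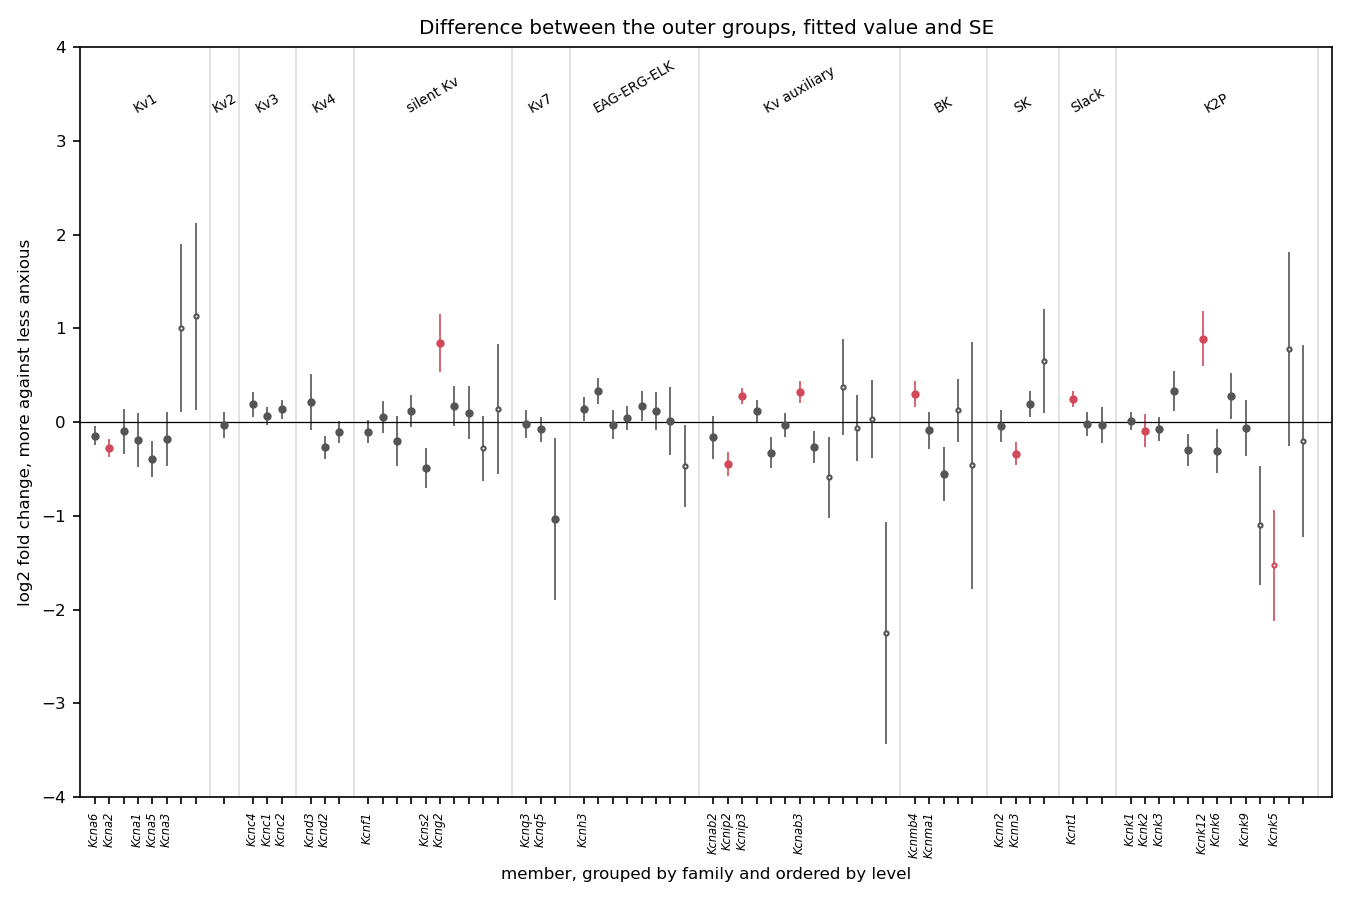
Fitted log2 fold change of more against less anxious mice for 74 of the 78 genes, with its SE, by family and in order of level within a family, with names for genes described in the text. Red marks the 11 genes with an unadjusted p under 0.05 in the joint test of the 3 groups, none of which passed adjustment. Open points are genes under 1 CPM, which have the widest errors.

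Single values are listed below in the order of mice 3, 7 and 12 (less anxious), 1, 4, 8 and 11 (anxious) and 2, 6, 9 and 10 (more anxious), in CPM scaled with TMM factors. In the group comparison, an adjusted p beside a log2 difference is that of the joint test of the 3 groups, not of that difference. The calcium-binding partners of Kv4 channels differed in direction. Kcnip2 (chr19:45791839-45816061, minus strand), which speeds the recovery of A-type channels, was at 157, 155 and 157 CPM in the less anxious, 141, 125, 150.4 and 191 in the anxious and 122, 116, 115 and 102 in the more anxious mice. The more anxious mice all lay under the other 7, and the log2 difference of more against less anxious was -0.45 ± 0.13 (SE, adjusted p = 0.504). Kcnip3 (chr2:127456498-127522094, minus strand), a relative of Kcnip2 that is also known as a DNA-binding repressor, was at 88.2, 108 and 101 CPM in the less anxious, 102, 103, 113 and 97.7 in the anxious and 118, 119, 124 and 126 in the more anxious mice. Here the more anxious mice all lay above the other 7, with a log2 difference of 0.28 ± 0.087 (adjusted p = 0.594). Kcnip4 and Kcnip1 differed by 0.11 ± 0.12 and -0.033 ± 0.13. Neither abundant pore-forming Kv4 gene was under an unadjusted 0.05, with Kcnd2 at 91.2 ± 10.2, 72.6 ± 15.4 and 72.1 ± 10.4 CPM (log2 -0.27 ± 0.12, adjusted p = 0.820) and Kcnd3 at 139 ± 73.6, 151 ± 36.2 and 163 ± 23.4 CPM (log2 0.21 ± 0.30, adjusted p = 0.985).

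Among the Kv1 channels and their beta subunits, Kcna2 (chr3:107101146-107115005, plus strand), an axonal channel subunit, was at 127, 123 and 125 CPM in the less anxious, 113, 96.3, 93.2 and 101 in the anxious and 94.6, 113, 99.8 and 102 in the more anxious mice. The 3 less anxious mice lay above the other 8, and the log2 difference was -0.28 ± 0.10 for more and -0.30 ± 0.095 for anxious against less anxious (adjusted p = 0.638). In 6 of 8 Kv1 genes the fitted difference of more against less anxious mice was under 0, and only Kcna2 among them was under an unadjusted 0.05. Kcna1, its frequent partner in axons, was at 12.8 ± 4.74, 10.4 ± 2.89 and 11.3 ± 1.66 CPM, and Kcna6 at 93.2 ± 3.17, 86.2 ± 11.6 and 82.5 ± 8.73 CPM. Kcna2 lies between Kcna3 and Kcna10 on chromosome 3, while Kcna5, Kcna1 and Kcna6 are neighbours on chromosome 6. Within the former, log2 differences were -0.18 ± 0.28 for Kcna3, which was at 2.58 CPM, and 1.0 ± 0.90 for Kcna10, which was at 0.303 CPM. Kcnab3 (chr11:69326258-69333042, plus strand), a beta subunit of Kv1 channels, was at 15.4, 11.4 and 13.3 CPM in the less anxious, 14.6, 13.6, 13.5 and 13.8 in the anxious and 16.6, 15.9, 17.9 and 14.5 in the more anxious mice. Its groups overlapped, with a log2 difference of 0.32 ± 0.12 (adjusted p = 0.757), and its exons overlap those of the antisense gene Kcnab3os. The more abundant Kcnab2 was at 249 ± 67.3, 226 ± 64.0 and 223 ± 15.7 CPM.

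No gene of the Kv2, Kv3, Kv7 or Kcnh families was under an unadjusted 0.05. All 4 Kv3 genes had a fitted difference of more against less anxious mice above 0, of log2 0.066 to 0.19, with Kcnc4 at 0.19 ± 0.13, Kcnc2 at 0.14 ± 0.10 and Kcnc1 at 0.066 ± 0.10. Among the Kv7 genes, Kcnq3 was at 153 ± 21.5, 132 ± 18.8 and 146 ± 31.0 CPM (adjusted p = 0.963). Kcnq5 had its lowest mean in the anxious mice, with 53.5, 38.4, 40.2 and 45.9 CPM against 48.3, 56.7 and 62.5 in less and 47.1, 59.4, 52.9 and 51.6 in more anxious mice (adjusted p = 0.810). Kcnh3 was at 114 ± 19.7, 111 ± 12.0 and 127 ± 16.3 CPM (adjusted p = 0.924).

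Of the silent subunits, Kcng2 (chr18:80294546-80364254, minus strand) was at 4.0, 6.5 and 3.70 CPM in the less anxious, 2.62, 6.86, 8.61 and 5.28 in the anxious and 11.1, 7.37, 10.2 and 6.62 in the more anxious mice. Less and more anxious mice did not overlap, narrowly (6.5 against 6.62 CPM), the anxious mice spanned both, and the log2 difference was 0.84 ± 0.31 (adjusted p = 0.71). The most abundant silent subunit, Kcnf1, was at 161 ± 26.5, 147 ± 8.80 and 149 ± 18 CPM (log2 -0.10 ± 0.13, adjusted p = 0.978). Kcns2, at 17.3, 19.1 and 20.1 CPM in the less anxious and 9.06, 15.3, 13.5 and 14.9 CPM in the more anxious mice, went the other way (log2 -0.49 ± 0.21, adjusted p = 0.833).

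Among channels opened by sodium or calcium, Kcnt1 (chr2:25863734-25918273, plus strand), the sodium-activated channel, was at 143, 142 and 157 CPM in the less anxious, 154, 147, 154 and 137 in the anxious and 175, 171, 183 and 171 in the more anxious mice. The more anxious mice lay above the other 7, with a log2 difference of 0.25 ± 0.086 (adjusted p = 0.613), while Kcnt2 differed by -0.021 ± 0.13. Kcnmb4 (chr10:116417861-116473878, minus strand), the beta subunit of large-conductance channels in brain, was at 26.2, 35.8 and 27.7 CPM in the less anxious, 24.2, 36.4, 33.6 and 28.4 in the anxious and 35.7, 35.3, 42.5 and 36.2 in the more anxious mice. Its groups overlapped (log2 0.30 ± 0.14, adjusted p = 0.775), and without mouse 9 the difference was 0.17 ± 0.13. The pore gene Kcnma1 was at 36.9 ± 10.2, 33.7 ± 7.01 and 34.9 ± 3.41 CPM. Kcnn3 (chr3:89520164-89675132, plus strand), a small-conductance channel of the afterhyperpolarization, was at 39.4, 44.0 and 35.1 CPM in the less anxious, 42.5, 35.3, 33.0 and 37.6 in the anxious and 36.2, 31.9, 27.5 and 30.0 in the more anxious mice. The less and more anxious mice overlapped, since mouse 12 was at 35.1 and mouse 2 at 36.2 CPM, and the log2 difference was -0.34 ± 0.13 (adjusted p = 0.759), or -0.21 ± 0.16 without mouse 7. Kcnn2, the higher gene of that family per length, was at 29.3 ± 3.57, 33.2 ± 2.80 and 28.7 ± 7.56 CPM (adjusted p = 0.948).

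Of the leak channels, Kcnk12 (chr17:87745801-87797994, minus strand) was at 1.97, 2.53 and 1.75 CPM in the less anxious, 1.75, 3.92, 3.3 and 2.84 in the anxious and 3.36, 4.31, 5.55 and 2.59 in the more anxious mice. Less and more anxious mice were apart by 2.53 against 2.59 CPM, and the log2 difference was 0.89 ± 0.29 (adjusted p = 0.71). It was 0.52 without mouse 9 and 0.22 ± 0.23 with an offset for GC content. Kcnk2 (chr1:189207930-189402273, minus strand), a channel that membrane stretch and heat open, had its lowest mean in the anxious mice. It was at 36.0, 28.8, 35.2 and 29.2 CPM there, against 38.1, 43.9 and 50.6 in less and 30.4, 49.4, 37.2 and 51.3 in more anxious mice, so that all 4 anxious mice lay under the 3 less anxious ones. The log2 difference from less anxious was -0.48 ± 0.18 for anxious and -0.094 ± 0.18 for more anxious mice (adjusted p = 0.756), and the latter changed sign without mouse 12 (0.019) or mouse 2 (0.038). Kcnk6 also had its lowest mean in the anxious mice, 2.54 ± 0.412 CPM against 3.75 ± 0.851 and 3.11 ± 0.780 (adjusted p = 0.814). The most abundant of them, Kcnk1, was at 53.7 ± 1.38, 52.6 ± 2.97 and 54.1 ± 4.89 CPM (log2 0.0071 ± 0.10). Kcnk5, named for its place among the 11 and not by rule, was under 1 CPM in every mouse, at 0.361, 0.201 and 0.209 in less and 0.0224, 0.0899, 0.113 and 0.111 CPM in more anxious mice (log2 -1.53 ± 0.59, adjusted p = 0.692).

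**Figure D3:**
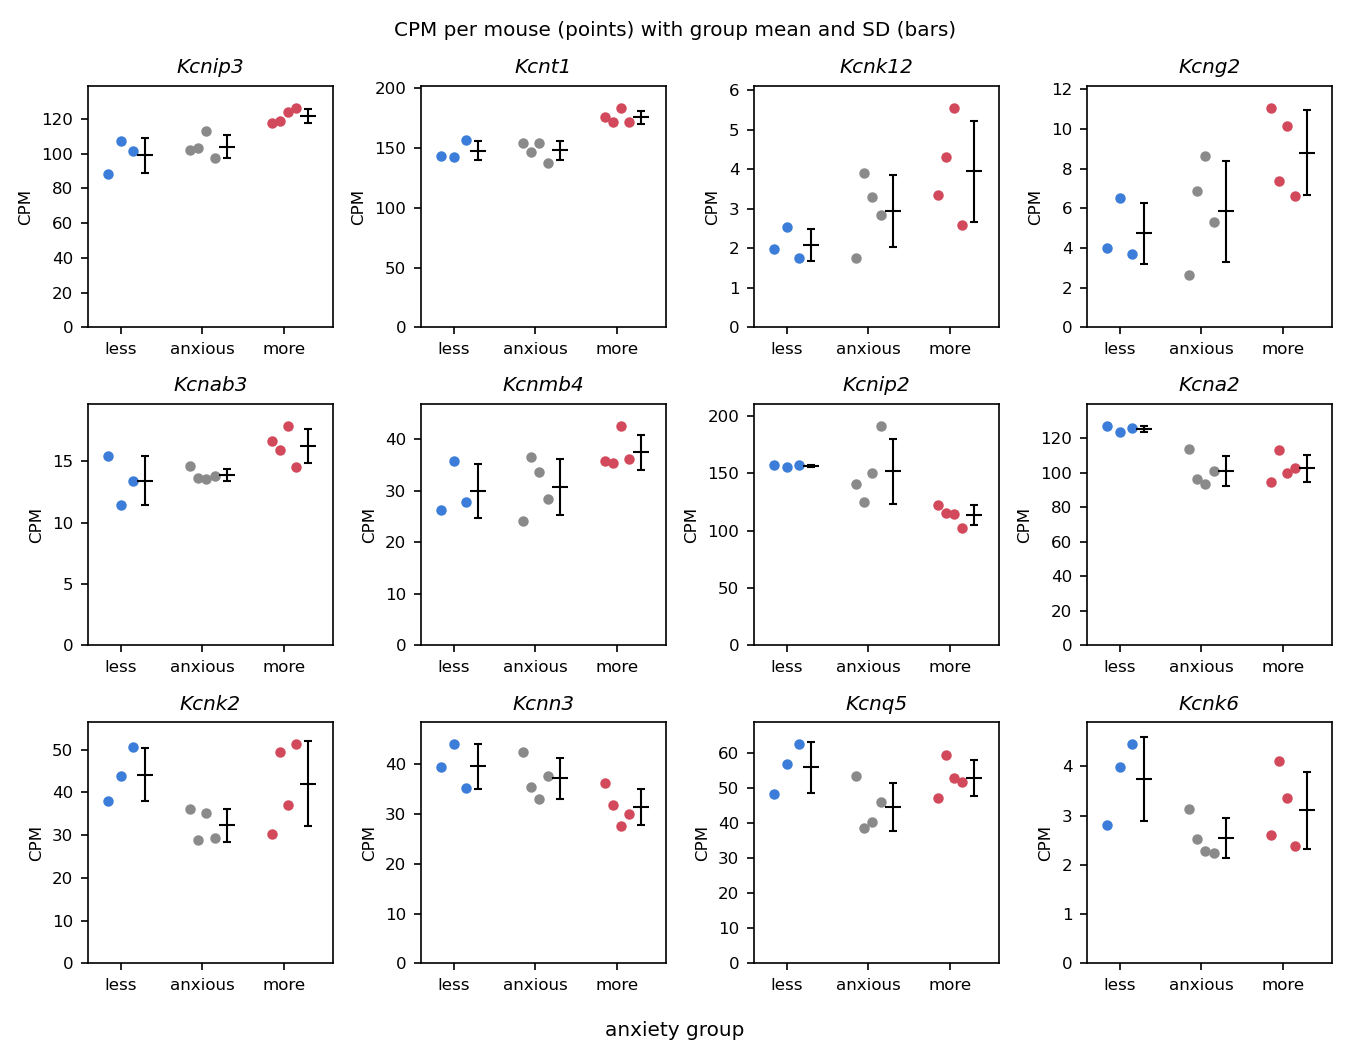
CPM in each of 11 mice (points) with the mean and SD of each group (bars), for the 6 genes with the smallest p among those higher and the 6 among those lower in more than in less anxious mice, at 1 CPM or more. The more anxious mice lie above all others for Kcnip3 and Kcnt1 and below all others for Kcnip2, while Kcnk2, Kcnq5 and Kcnk6 have their lowest mean in the anxious mice.

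Counted over the 78 genes, less and more anxious mice did not overlap in 5 with more anxious above (Kcnip3, Kcnt1, Kcnh2, Kcng2 and Kcnk12), where 4.49% of all genes did. In 5 others, among them Kcnip2, Kcna2, Kcns2 and Kcnk5, the more anxious mice were below, against 3.91% of all genes. Kcnh2, named here for that count, is the channel of the cardiac repolarizing current and was at 20.8 to 29.5 CPM in less and 30.2 to 37.5 CPM in more anxious mice (adjusted p = 0.787).

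GC content and cell type markers were set beside the differences between the groups. Across the 61 channel genes at 1 CPM or more, the log2 difference was higher at higher GC content of the transcript (Spearman rho 0.27), as it did across 15827 genes at that level (0.30). These points are genes of the same libraries and no independent replicates. Of 22 channel genes with 55% GC or more, 14 had a fitted difference above 0, with a median log2 difference of 0.12 where all such genes had 0.11. Between 45% and 55%, 10 of 27 were above 0 (median -0.040, all genes -0.0068), and under 45%, 4 of 12 (-0.028, all genes -0.071). With a GC offset in the fit, 7 of 78 channel genes were under an unadjusted 0.05, among 5.54% of all genes. Kcnip2, Kcnip3, Kcnt1, Kcna2, Kcnk2, Kcnk5 and Kcnmb4 were under it then, and Kcnk12, Kcng2, Kcnab3 and Kcnn3 were not. Of the latter, Kcnk12 went from 0.89 to 0.22 and Kcng2 from 0.84 to 0.61, while Kcnab3 was at 0.27 in place of 0.32 and Kcnn3 at -0.31 in place of -0.34.

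The fitted difference of more against less anxious mice was under 0 for markers of glia and vessels, in 5 of 5 astrocyte, 5 of 5 oligodendrocyte, 2 of 2 precursor, 5 of 5 microglia and 4 of 4 endothelial genes. The summed astrocyte markers ran over 1063 to 1298 CPM in less, 894 to 1047 in anxious and 795 to 1011 in more anxious mice, the oligodendrocyte markers over 2225 to 2898 CPM in less, 1383 to 2659.7 in anxious and 1780.4 to 2436 in more anxious mice and the precursor markers over 82.9 to 109 CPM in less, 80.1 to 95.0 in anxious and 71.9 to 88.9 in more anxious mice. Endothelial markers summed to 102 to 148 CPM in less, 75.4 to 129.7 in anxious and 76.0 to 95.9 in more anxious mice, and microglia markers to 164 to 198 CPM in less, 148 to 183 in anxious and 136 to 171 in more anxious mice. The fitted difference was under 0 for all 6 markers of striatal-type neurons too, with sums of 317 to 972 CPM in less, 246 to 541 in anxious and 306 to 635 in more anxious mice. For general neuronal markers it was above 0 in 4 of 5, with sums of 4739 to 5209 CPM in less, 4616 to 5382 in anxious and 4653 to 5679 in more anxious mice. It was above 0 for 4 of 5 markers of excitatory neurons (2755 to 4157 CPM in less, 3186 to 3625 in anxious and 3297 to 3973 in more anxious mice) and 2 of 6 of inhibitory neurons (904 to 1012 CPM in less, 929.7 to 1175 in anxious and 728 to 1169.6 in more anxious mice), 1 of 6 of the amygdala nuclei, 1 of 5 of the choroid plexus (15.7 to 23.7 CPM in less, 11.9 to 14.2 in anxious and 9.38 to 17.0 in more anxious mice) and 1 of 4 of pituitary. Of these lists, 0 genes passed adjustment. In the joint test of the 3 groups, an unadjusted p under 0.05 was found on the lower side for Slc1a3, Pdgfra, Flt1, Drd1, Rgs9, Kcnj13, Prl, Gh and Cga, among others. On the higher side it was found for Rbfox3, Neurod2 and Pomc. The log2 difference of more against less anxious was -2.9 ± 3.5 for Cga and 0.49 ± 0.58 for Pomc. That of anxious against less anxious was 5.3 for Cga and 1.8 for Pomc. None of the markers in these lists was at 0 reads over the 11 mice, while Cga was at 0 in all 4 more anxious mice. The part of the markers in the differences of the channel genes was not tested.

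**Figure D4:**
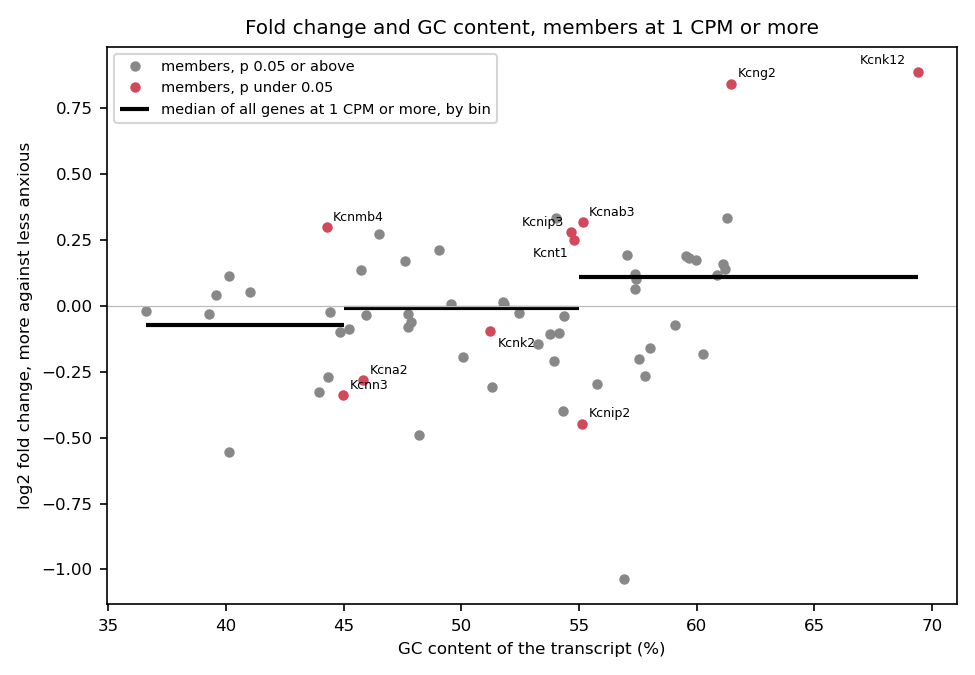
Log2 fold change of more against less anxious mice and GC content of the transcript for the 61 channel genes at 1 CPM or more, with the median of all genes at that level in 3 GC bins as black lines. Kcnk12 and Kcng2, with the largest positive differences, have 69.4% and 61.5% GC, while Kcnip2, at 55.1% GC, lies below the line of its bin.

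Of 23 genes for partners of these channels and for the related HCN pacemaker channels, 22 were tested, since Lrrc52 had too few reads. 1 of them was under an unadjusted 0.05, Hcn2, and 0 passed adjustment, with 11 fitted differences of more against less anxious mice above 0 and 11 under 0. Hcn2, a pacemaker channel that opens on hyperpolarization, was at 50.6 ± 6.72, 48.9 ± 3.17 and 62.3 ± 5.04 CPM in the 3 groups (log2 0.29 ± 0.11, adjusted p = 0.553). Calmodulin, which gates the small-conductance and Kv7 channels, showed log2 differences of -0.012 ± 0.13 for Calm2 and 0.19 ± 0.14 for Calm3. Dpp6, the membrane partner of Kv4 channels, differed by -0.077 ± 0.092, and Vapa, which ties Kv2 channels to the endoplasmic reticulum, by 0.077 ± 0.12.

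The behavior measures allow a comparison that does not rest on expression-based groups. Each measure was standardized and fitted over all genes with edgeR, so that a slope is the log2 change in level for 1 SD of the measure (with its SE). Over the 7 measures 0 channel genes passed Benjamini-Hochberg adjustment. Of all 26963 genes, 2 passed for time in the light, 4, 3 and 6 for the social ratio at 3, 5 and 10 min, and 0 for the other measures. DESeq2's likelihood ratio test called 1 channel gene, Kcnd3 for the social ratio at 10 min, in a fit with 6.24% of all genes under an unadjusted 0.05. Before adjustment, 1 of 78 was under 0.05 for time in the light compartment (3.55% of all genes), 6 for the distance share there (5.8%), 1 for time on open arms (5.84%) and 9 for the entries counted in the elevated plus maze (6.97%). For the box:zone ratio of the social test, which sets time spent close to an unfamiliar mouse against time at a distance from it, there were 4 at 3 min (7.54%), 5 at 5 min (6.56%) and 5 at 10 min (8.05%). The 9 genes for entries are 11.5% of the channel genes, 6 with a positive and 3 with a negative slope, and the 6 for distance in the light are 7.69%, 4 with a positive and 2 with a negative slope. The other 5 measures were under their background.

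For the elevated plus maze, where entries into either arm were counted (SD 9.85 entries), the leak channel Kcnk2 had a slope of 0.21 ± 0.065 (p = 0.0056, n = 11 mice, adjusted p = 0.594). Mouse 2 made 6 entries and had 30.4 CPM, and mouse 12 made 42 and had 50.6 CPM. The slope had an unadjusted p under 0.05 in each of the 11 fits that left out 1 mouse. The calcium-activated Kcnn2 had a negative slope of -0.18 ± 0.053 (p = 0.0041, n = 11 mice, adjusted p = 0.593), with 39.9 CPM in mouse 2 and 25.7 CPM in mouse 12. Kcnh8, named for its p and not by rule since it was at 0.756 CPM, had the smallest p of the 78 for this measure (slope 0.59 ± 0.14, p = 0.00067, n = 11 mice, adjusted p = 0.519). For the share of time on the open arms, the slopes of Kcna3 and of the acid-sensitive leak channel Kcnk9 were 0.28 ± 0.10 (adjusted p = 0.727) and 0.23 ± 0.11 (adjusted p = 0.859). The unadjusted edgeR p was 0.015 for Kcna3 and 0.058 for Kcnk9, which was thus not under 0.05. With 1 mouse left out it was under 0.05 in 10 of 11 fits for Kcna3 (0.071 without mouse 6) and in 3 of 11 for Kcnk9.

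In the light/dark box, Kcng2 had a slope of -0.40 ± 0.12 on the share of distance covered in the light (SD 7.89 percentage points, p = 0.005, n = 11 mice, adjusted p = 0.805). It was highest in mice 2 and 9 (11.1 and 10.2 CPM), which covered 16.6% and 19.3% of their distance in the light, and lowest in mouse 1 (2.62 CPM, 37.3%). Mouse 6, a more anxious mouse, stood apart with the highest share of 41.9% and 7.37 CPM. Without it the slope was -0.70 ± 0.083 and passed adjustment (adjusted p = 0.0151), while with mouse 5 included it was -0.29 ± 0.14. For the share of time in the light, Kcng2 had a slope of -0.26 ± 0.14 (adjusted p = 1.0), which without mouse 6 was -0.83 ± 0.13 and passed adjustment (adjusted p = 0.0314). Leaving out mouse 6 also moved the share of all genes under an unadjusted 0.05 from 5.8% to 10.7% for distance and from 3.55% to 10% for time in the light. The silent subunit Kcns2 had a positive slope on distance of 0.25 ± 0.085 (adjusted p = 0.83), or 0.12 ± 0.092 with mouse 5 included. On time in the light, the axonal Kcna2 and the acid-sensitive leak channel Kcnk3 had slopes of 0.11 ± 0.047 (adjusted p = 1.0) and 0.11 ± 0.051 (adjusted p = 1.0), the latter 0.040 ± 0.076 without mouse 6. The slope of Kcna2 was 0.19 ± 0.062 without mouse 6 and 0.059 ± 0.050 with mouse 5 included.

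In the social test, Kcnd3, the A-type channel, had a slope of -0.41 ± 0.10 on the box:zone ratio at 10 min (SD 0.613, p = 0.0019, n = 11 mice, adjusted p = 0.370). Mouse 3 held both the lowest level, 54.3 CPM, and the highest ratio, 2.62, where the other 10 mice had ratios of 0.495 to 1.58. Without mouse 3 the slope was -0.15 ± 0.11, and without mouse 8, which had 187 CPM at a ratio of 1.58, it was -0.48 ± 0.073 and passed adjustment (adjusted p = 0.0498). DESeq2's likelihood ratio test gave it an adjusted p = 0.0368. Kcnf1, the silent subunit, had positive slopes of 0.12 ± 0.041 at 10 min (p = 0.0085, n = 11 mice, adjusted p = 0.455) and 0.12 ± 0.042 at 5 min (adjusted p = 0.627). Its level ran from 122 CPM in mouse 2, which had the lowest ratio at 10 min, to 183 CPM in mouse 3, and without mouse 3 the slope at 10 min was 0.13 ± 0.070. The slope of Kcnd3 at 5 min was -0.30 ± 0.13 (adjusted p = 0.732) and -0.066 ± 0.10 without mouse 3. At 3 min, where mouse 4 has no value, the Kv1 gene Kcna5 had a slope of -0.18 ± 0.075 (p = 0.029, n = 10 mice, adjusted p = 0.604).

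**Figure D5:**
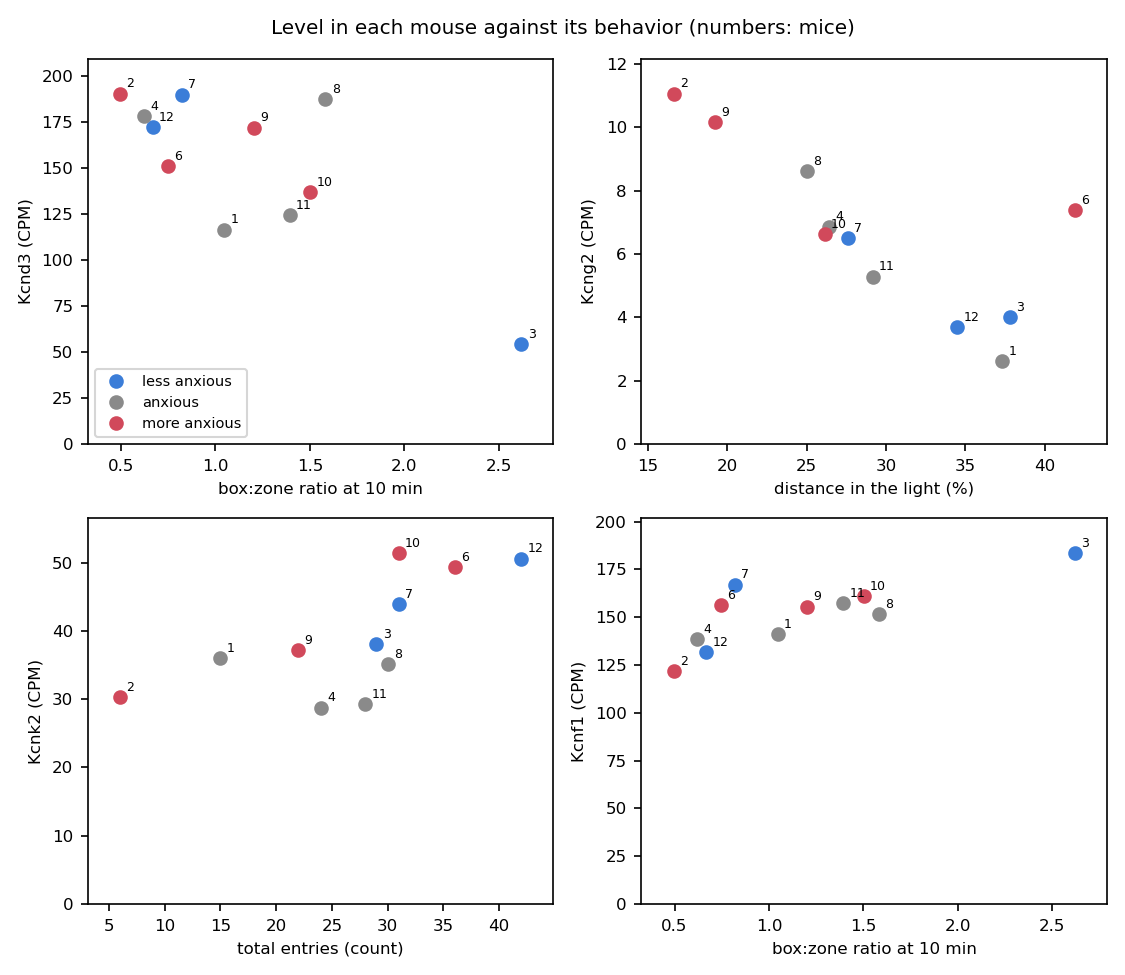
CPM of Kcnd3, Kcng2, Kcnk2 and Kcnf1 in each of 11 mice (numbered points, colored by group) against the behavior measure named on the x axis. Kcnd3 turns on mouse 3 at 54.3 CPM, Kcng2 is highest in mice 2 and 9 with little distance in the light, with mouse 6 apart at 41.9%, and Kcnk2 and Kcnf1 are higher in mice with more entries and with higher social ratios.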

How the data were processed

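Bilateral amygdala of 12 female C57/BL6 mice was sequenced as 1 stranded mRNA library per mouse, with single-end reads of 75 bases in a single run. The authors deposited 1 table of estimated counts per gene for the 12 mice, made with Salmon and summed to genes with tximport on mm10, whole numbers as deposited. CASAVA and DESeq2 are also named in the submitters' processing notes, without versions. Their annotation release and whether the counting used the strand are not given in the sources used here. Salmon shares reads among transcripts by likelihood, so genes with similar or overlapping sequence have less certain counts. Counts were not altered: genes with 10 or more reads over 11 mice were kept (26963 genes), scaled with TMM factors and fitted with the quasi-likelihood test of edgeR 4.0.16 (R 4.3.3, robust), with the group and the score on the first principal component in the model, or with each standardized behavior measure alone. P-values were adjusted over all genes within a fit. CPM was computed on the TMM-scaled library. DESeq2 1.42.0, another scaling, other filters, ranks, a GC offset and leaving out each mouse were alternatives. The fits were tested on simulated data, with the same dispersion for all genes and groups that were not set from the simulated counts. That test therefore cannot show the error rate for groups set from expression. Symbols, lengths, GC content and coding sequences came from GENCODE M21 (GRCm38, the build of mm10), which held 47310 of the 47729 genes. Comparing libraries by pairs found no duplicate. Mouse 5 has no group, was removed by the study as an outlier, and stayed out.

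Genes were named that had the smallest p (6 higher and 6 lower between groups, 2 per behavior measure, at 1 CPM or more), the highest level in a family, or a fixed role. Kcnip1, Kcnip4, Kcnt2, Kcna10, Kcnk5, Kcnh2, Kcnh8 and Kcnq1 were added after their values were seen. Some genes that the rule names are not reported here, and the plots by family leave them out. The channel genes, partner and marker lists were chosen with earlier results of these data known.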

Additional observations from a re-analysis of the deposited data

Results flagged for a closer look

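Among the 34 named channel genes, 68 groups of 4 mice (anxious and more anxious) were looked at for a mouse apart from the others, by the gap to the nearest mouse as a share of the range, and 5 groups had one. Chance flags about 1 in 20 groups. All 5 were in the more anxious group and 3 of them in mouse 2. In mouse 2, the axonal channel gene Kcna1 was low (gap share 0.962) at 8.76 CPM against 12.0 to 12.2 in the other 3, and the silent subunit Kcnf1 was low (0.859) at 122 CPM against 156 to 161 in the other 3. The small-conductance channel gene Kcnn2 was high in mouse 2 (0.879) at 39.9 CPM against 23.9 to 25.8 in the other 3. The acid-sensitive leak channel gene Kcnk3 was high in mouse 6 (0.833) at 17.7 CPM against 12.2 to 13.1 in the other 3. The beta subunit gene Kcnmb4 was high in mouse 9 (0.874) at 42.5 CPM against 35.3 to 36.2 in the other 3. Mouse 2 had the largest library of the 11, with 45142355 reads, and the fewest entries in the elevated plus maze, and the part of either in these values was not tested.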

How the results depend on the processing

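In the group comparison 0 channel genes passed adjustment under any of the 8 other settings or with any mouse left out. Of all genes, 187 passed with DESeq2, 22 with group order as a number and 0 to 12 in the other fits. The number under an unadjusted 0.05 (11) was 7 with the GC offset, 9 to 14 under the other settings and 6 to 16 with 1 mouse left out. The share of all genes in the same fits was 5.54% for the 7, 5.97% for the 9 (no covariate), 9.17% for the 14 (group order as a number), 4.5% for the 6 (without mouse 9) and 6.94% for the 16 (without mouse 1). Kcnip2, Kcnip3 and Kcnt1 were under it in all 19 alternatives and Kcna2 in 18. The median log2 difference of the 78 ran from -0.064 to 0.033 with 1 mouse left out. That of Kcnk2, more against less anxious, ran from -0.24 to 0.038 and turned positive without mouse 12 (0.019) or mouse 2 (0.038). For time in the light, the 1 gene became 2 with median-of-ratios scaling, a mean of at least 1 CPM, DESeq2 or mouse 5 included, 6 with ranks of the measure (6.07% of all genes), 4 with the first principal component as a covariate, and 0 to 9 with 1 mouse left out (0 without mouse 11 at 3.19% of all genes, 5 without mouse 9 at 3.92%, 9 without mouse 6 at 10%). For distance in the light, 6 became 3 with mouse 5 and 4 to 13 with 1 mouse left out (13 without mouse 6 at 10.7% of all genes). For open-arm time, 1 became 2 with DESeq2 or mouse 5, 6 with ranks (6.25% of all genes), 7 with the covariate (8.26%) and 1 to 6 with 1 mouse left out, where every mouse but mouse 8 moved it to 2 or more (6 without mouse 6 at 6.75% of all genes). For entries, the 9 ranged over 8 to 13 under other settings (13 with the covariate at 8.53% of all genes). With 1 mouse left out they ranged over 6 to 13 (6 without mouse 2 at 3.72% of all genes or mouse 6 at 6.54%, 13 without mouse 1 at 7.32%). The ratio at 3 min went from 4 to 7 with mouse 5 and to 3 to 11 with 1 mouse left out (7 without mouse 2 at 8.16% of all genes, 8 without mouse 6 at 6.92%, 11 without mouse 9 at 8.18%). At 5 min, 5 became 3 with a mean of at least 1 CPM, ranks or mouse 5, and 1 to 5 with 1 mouse left out (1 without mouse 3 at 3.47% of all genes, 2 without mouse 2 at 7.1%, 3 without mouse 7 at 5.96% or mouse 9 at 6.79%). At 10 min, 5 became 2 with ranks and 2 to 9 with 1 mouse left out (2 without mouse 3 at 2.89% of all genes, 8 without mouse 12 at 9.03%, 9 without mouse 4 at 8.69%). The cause of these moves was not tested. With exons joined, the TPM-type level of 9 family leaders moved by more than their SD, among them Kcnf1 to 78.7, Kcnh3 to 50.8, Kcnk1 to 59.4 and Kcnn2 to 10.1. No paired analysis was possible because each mouse gave 1 library and replicate numbers only name the mice within a group. Depth limits the 17 channel genes under 1 CPM, such as Kcnk5, whose differences rest on few reads per mouse, and 3 or 4 mice a group limit the rest.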

Other observations

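Mouse 5, which the labels put in no group and the study removed as an outlier, was set on the same CPM scale. Of the 61 channel genes at 1 CPM or more, it lay above all 11 other mice for 7 and below all of them for 7. Each of the other mice was set against the rest without mouse 5, so their counts are not made on the same mice. Counted that way, the other mice were the highest for 3 to 10 of these genes and the lowest for 2 to 10. The 7 genes with their highest level in mouse 5 were Kcna2, Kcna1, Kcnh7, Kcnma1, Kcns2, Kcne1l and Kcng4. Kcna2 was at 129 CPM, against 93.2 to 127 in the others, and Kcnma1, the large-conductance calcium-activated channel gene, at 47.6 against 25.8 to 45.9. Among the 7 with their lowest level there were Kcnh3, Kcnh2, Kcnk3, Kcnk4, Kcnk12 and Kcnu1. Kcnh3 was at 90.1 CPM against 96.2 to 147, and Kcnk12 at 1.73 against 1.75 to 5.56. These genes were named after their values were seen. Mouse 5 had reads on 23768 genes, fewer than the 26378 to 28196 of the others, and covered 16.6% of its distance in the light, as did mouse 2.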
